A study of Mus musculus with 12 samples.

Results

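RNA of hematopoietic stem cells (HSCs) that had come through a dose of 5-fluorouracil (5-FU) was compared with RNA of undisturbed HSCs, in mice that drank no antibiotics. The comparison uses 6 of the 12 samples of the series, 3 control and 3 control 5-FU, chosen by their labels. All mice were C57BL/6, 12 weeks old, and the cells were sorted from bone marrow as HSCs by gates not given in the sources used here. Control mice received no 5-FU. The control 5-FU mice received 200 mg/kg into a vein and were taken on day 12. The other 6 samples were 3 with antibiotics and 3 with antibiotics and the same 5-FU dose. Those mice were given vancomycin, metronidazole, neomycin and ampicillin in their water over 4 to 6 weeks. These samples serve here as a second reading, since the log2 changes of the control pair do not use their values. The spread of each gene was estimated over all 12 libraries, so the p-values of both pairs rest on it. Each library was made from 2000 cells. Whether the 3 libraries of a group are 3 animals is not stated in the labels, so the p-values measure the spread between these libraries only.

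5-FU is an antimetabolite that kills dividing cells, so it removes most cycling progenitors of the marrow and spares cells at rest. The surviving HSCs are known to enter the cell cycle in the following days, rebuild the marrow and then return toward rest. How an HSC senses its niche in that time depends on its receptors for cytokines, chemokines and lipids, on adhesion molecules that hold it in place, and on the transcription factors that these receptors act upon.

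Values are RPKM (reads per kilobase of transcript, scaled to library depth) as the authors deposited them. Of 46986 features in the table, 8553 genes that reached 1 RPKM in 3 or more of the 12 libraries were tested on the scale of log2(RPKM + 1), which understates the change of genes near 1 RPKM. A gene under 1 RPKM in every library of one group passed that filter only through the libraries where it was higher. On that scale 833 genes were called higher after 5-FU (9.74% of those tested) and 1013 were called lower (11.8%), with limma at an adjusted p of 0.05. The groups did not overlap, all 3 libraries of one above all 3 of the other, for 1594 genes that were higher (18.6%) and 1568 that were lower (18.3%). Of the calls, 69 higher and 39 lower genes changed by at least 1 on the log2 scale. The counts varied with single libraries: without control 3 they were 427 and 515, without control 5-FU 3 they were 488 and 505, and without control 1 they were 624 and 643. A log2 change is given ± SE for the main genes. Genes printed with values below were called in each of the 6 fits that leave out 1 library, unless the text says otherwise. Genes picked for the size of their change had to have groups that do not overlap, so separate groups add no support for them.

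The direction of a family also depends on scaling, since the summed RPKM was lower in the control 5-FU libraries. With each library rescaled to the same total, the median change of all genes went from 0.005 to 0.138 and the calls went to 1880 higher and 436 lower, so changes below should be read against that shift. Under that scaling the median change of surface proteins was 0.280, of secreted proteins 0.368 and of transcription factors 0.254, each above that of all genes, and where the direction of a family described below turned, its count gives that.

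The label was checked against markers. Of 18 HSC markers 16 passed the filter. The summed level of all 18 was 287.1 to 303.1 RPKM in control and 343.7 to 365.6 RPKM after 5-FU. Ly6a, 1 of them, went from 55.5, 63.7 and 65.6 RPKM to 133, 130 and 117 RPKM. That gene alone rose by about as much as the sum, so the sum does not show a rise shared by the markers. Of the 16 that passed the filter, 8 were called higher and 2 lower. Mecom, a transcription factor of HSCs, stood under 0.5 RPKM in all 6 libraries. Cd48, Il7r and Fcgr3, from a list of surface markers of progenitors, also stood under 0.5 RPKM in all 6. Flt3, of the same list, stood at 0.696, 0.502 and 0.478 RPKM in control. After 5-FU it stood at 0.570, 0.791 and 1.06 RPKM, with groups that overlapped, and was not called. Most B cell (6 of 8), T and NK cell (10 of 13), and basophil and mast cell markers (7 of 8) were under 0.5 RPKM in all 6 libraries. The neutrophil and monocyte markers summed to 138.2 to 155.6 RPKM in control and to 152.0, 252.5 and 448.8 RPKM in control 5-FU 1, 2 and 3. Of these 16 markers 7 were tested, with 3 called higher and 0 lower, and Ly6g, Csf1r and Retnlg were under 0.5 RPKM throughout. In control 5-FU 1, 2 and 3 Elane stood at 0.620, 1.53 and 26.8 RPKM and Ngp at 3.33, 8.77 and 48.1 RPKM. Their highest control values were 0.658 and 3.20 RPKM. Lyz2 stood at 114, 120 and 111 RPKM in control and at 97.7, 126 and 113 RPKM after 5-FU. Elane and Lyz2 were not called. The erythroid markers summed to 306.2, 29.72 and 43.64 RPKM in control and to 180.4, 230.3 and 144.9 RPKM after 5-FU. The megakaryocyte and platelet markers summed to 223.0, 156.2 and 137.1 RPKM in control and to 468.4, 188.5 and 160.6 RPKM after 5-FU. Control 5-FU 1 also had the most RNA of the stroma and endothelium markers, 17.92 RPKM against 1.812 to 6.894 RPKM in the other 5 libraries, and stood apart on the third principal component. In bulk RNA, fewer cells of a type and less RNA per cell cannot be told apart, and the index read that sets the 5-FU libraries apart from the rest in their titles cannot be told apart from the treatment either.

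**Figure D1:**
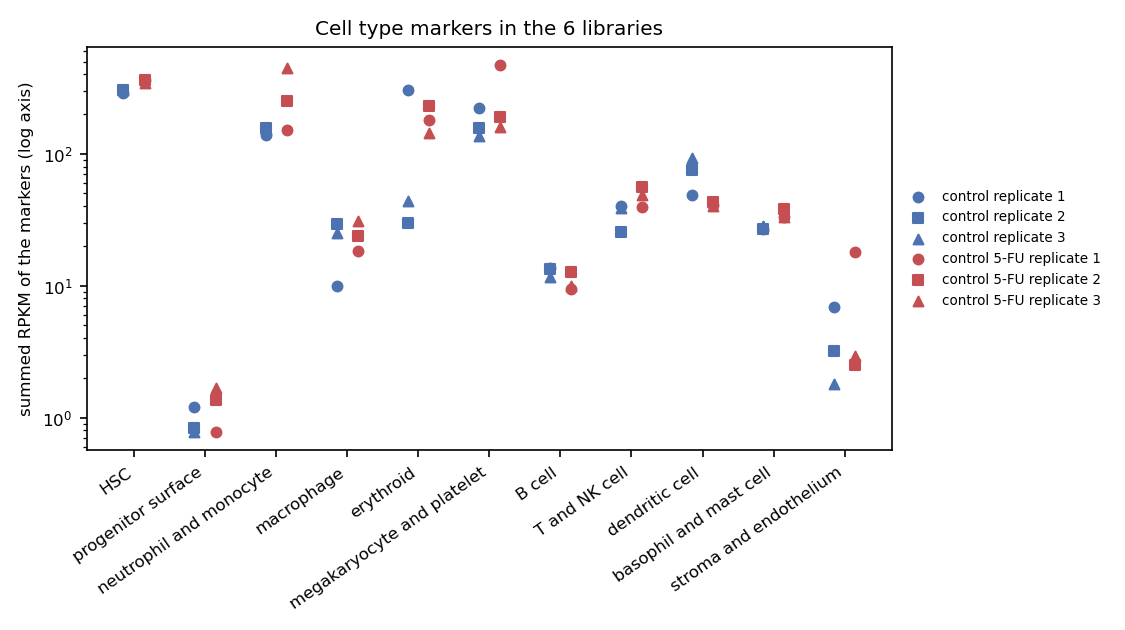
Summed RPKM of the marker genes of each cell type (log axis) in the 3 control and 3 control 5-FU libraries, 1 symbol per library. HSC markers lie between 287.1 and 365.6 RPKM in all 6, while neutrophil and monocyte markers reach 448.8 RPKM in control 5-FU 3 and megakaryocyte and platelet markers reach 468.4 RPKM in control 5-FU 1.

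The promoters of 22 genes with a large change were looked up in RefSeq (build GRCm38.p6), and 19 matched, giving 22 windows of the 200 bases before the start. They were searched on both strands for the letters GGGNNTTCC (NF-kB), TTCNNNGAA (STAT), TGANTCA (AP-1) and TTGCNNAA (C/EBP), the motifs of factor families that inflammatory cytokines act through. Of the 22 windows 6 held at least 1 of the 4 motifs, and the rest held none. The share of all windows of this length with at least 1 of the 4 was not counted, so 6 cannot be called many or few. The 4 windows shown are those that hold a motif and lie outside the gene model of the table. They were picked after the search and belong to genes described below. Capitals mark the motif.
Selp, chr1:164115064-164115263, plus strand, AP-1 at 139 to 133 bases before the start: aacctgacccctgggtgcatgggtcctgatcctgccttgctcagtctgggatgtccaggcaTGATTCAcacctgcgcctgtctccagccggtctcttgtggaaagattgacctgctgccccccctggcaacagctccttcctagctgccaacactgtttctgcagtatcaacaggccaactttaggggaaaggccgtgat
Ccl9, chr11:83578637-83578836, minus strand, AP-1 at 53 to 47 and NF-kB at 35 to 27 bases before the start: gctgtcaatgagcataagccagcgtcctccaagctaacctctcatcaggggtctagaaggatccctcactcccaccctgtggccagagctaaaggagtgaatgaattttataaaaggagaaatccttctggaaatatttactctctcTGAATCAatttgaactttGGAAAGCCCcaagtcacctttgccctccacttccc
Csf2rb2, chr15:78305722-78305921, minus strand, STAT at 15 to 7 bases before the start: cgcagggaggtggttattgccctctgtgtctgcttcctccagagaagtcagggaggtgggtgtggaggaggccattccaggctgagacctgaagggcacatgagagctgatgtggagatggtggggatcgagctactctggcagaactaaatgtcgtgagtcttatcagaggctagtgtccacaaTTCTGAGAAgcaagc
Kazald1, chr19:45075041-45075240, plus strand, C/EBP at 14 to 7 bases before the start: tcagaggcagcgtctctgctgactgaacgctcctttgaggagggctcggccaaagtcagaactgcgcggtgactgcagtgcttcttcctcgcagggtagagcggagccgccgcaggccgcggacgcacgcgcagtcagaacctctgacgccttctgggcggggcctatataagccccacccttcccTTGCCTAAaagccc

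A match is a description and shows neither that a factor binds nor that it acts. Of all 32851 windows of 250 bases before a start in the RefSeq table, 4.98% held the NF-kB letters, 7.02% the STAT letters, 6.75% the AP-1 letters and 9.56% the C/EBP letters. Shares among the called genes are not compared, because only 62.4% of the genes called lower matched the table.

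Some genes went from near absence to clear expression. A gene was taken as switched on where all 3 control libraries were under 0.5 RPKM and all 3 control 5-FU libraries were at 1 RPKM or more, and as switched off in the reverse case. The rule found 7 genes switched on (Il10ra, Gpr18, Wfdc18, Tmem215, Col18a1, C4b and Cxcr1) and 2 switched off (Kazald1 and Trib2). These genes were chosen by their values in the 6 libraries, so those values are a description without a test. The counts depend on single libraries as well: without control 5-FU 1 there were 11 switched on and 10 off, and without control 5-FU 2 there were 13 and 5, while without control 1 or control 2 there were 10 and 4.

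Il10ra, the ligand-binding chain of the receptor for the anti-inflammatory cytokine interleukin 10 (chr9:45253837-45269149, mm10), stood at 0.0751, 0.135 and 0.323 RPKM in control and at 4.27, 5.26 and 8.50 RPKM after 5-FU. Gpr18, a G protein-coupled receptor of lymphoid and myeloid cells (chr14:121911435-121915774), stood at 0.0572, 0.137 and 0.189 RPKM and then at 1.54, 3.01 and 3.13 RPKM. For both, every treated library exceeded the highest control library by several fold. Cxcr1, a chemokine receptor best known from neutrophils (chr1:74191785-74194631), went from 0.0634, 0.128 and 0.377 RPKM to 1.27, 2.25 and 1.58 RPKM. Its highest value was in control 5-FU 2, whereas the neutrophil and monocyte markers were highest in control 5-FU 3. Their part in the level of Cxcr1 was not tested.

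The other genes switched on encode secreted, matrix and membrane proteins. Wfdc18, a small whey acidic protein (chr11:83709015-83711348), went from 0.0773, 0.189 and 0.0546 RPKM to 1.23, 4.03 and 2.87 RPKM. Col18a1, the collagen of basement membranes from which endostatin is cut (chr10:77052178-77166548), went from 0.213, 0.149 and 0.141 RPKM to 3.08, 1.09 and 1.66 RPKM. Both were low in all control libraries, with the highest treated value in different libraries. C4b, a complement component with a close copy in the genome whose reads may be shared (chr17:34728380-34743882), went from 0.153, 0.0692 and 0.254 RPKM to 2.17, 1.02 and 1.96 RPKM, and was called in 2 of the 6 fits that leave out a library. Tmem215, a transmembrane protein (chr4:40472180-40477168), went from 0.461, 0.411 and 0.273 RPKM to 1.11, 4.22 and 2.58 RPKM. Control 5-FU 1 and 2 thus bound the range of Tmem215, and its lowest treated value is close to the limit of the rule.

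Of the genes switched off, Kazald1 encodes a secreted protein with insulin-like growth factor binding and Kazal domains (chr19:45075241-45079289) and stood at 2.45, 2.83 and 3.11 RPKM in control and at 0.460, 0.437 and 0.284 RPKM after 5-FU. Trib2, a Tribbles pseudokinase that lowers C/EBP alpha protein and can drive leukaemia (chr12:15791727-15816877), stood at 1.35, 2.01 and 1.32 RPKM and then at 0.265, 0.119 and 0.0916 RPKM. Both were lower in every treated library by a wide margin. Just outside the rule lay Tppp3, whose highest control value was 0.508 RPKM and lowest treated value 1.30 RPKM, and Pirb, with 0.372 and 0.952 RPKM. On the other side lay St14, whose lowest control value was 1.01 RPKM and highest treated value 0.517 RPKM.

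The antibiotic-treated mice gave a reading of the same 9 genes in libraries that had not chosen them. Without 5-FU, Il10ra stood at 0.198, 0.404 and 0.232 RPKM, and with 5-FU at 6.48, 6.96 and 7.54 RPKM, a log2 change of 2.65 (limma, adjusted p = 1.3e-05). Gpr18 rose by 1.65 (adjusted p = 0.00011), Wfdc18 by 2.0, Col18a1 by 1.11, C4b by 1.14 and Cxcr1 by 1.0, while Kazald1 fell by 1.32 and Trib2 fell by 1.15. These 8 changes passed the threshold. Tmem215 was the exception, at 0.44 with an adjusted p of 0.20. Kazald1 was still at 1.49, 1.02 and 1.08 RPKM in those mice after 5-FU, so there it was lower without being off. C4b stood at 3.55, 0.527 and 0.946 RPKM and Tmem215 at 0.730, 0.441 and 0.786 RPKM in the same mice after 5-FU, so the rule did not find these genes switched on there either.

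**Figure D2:**
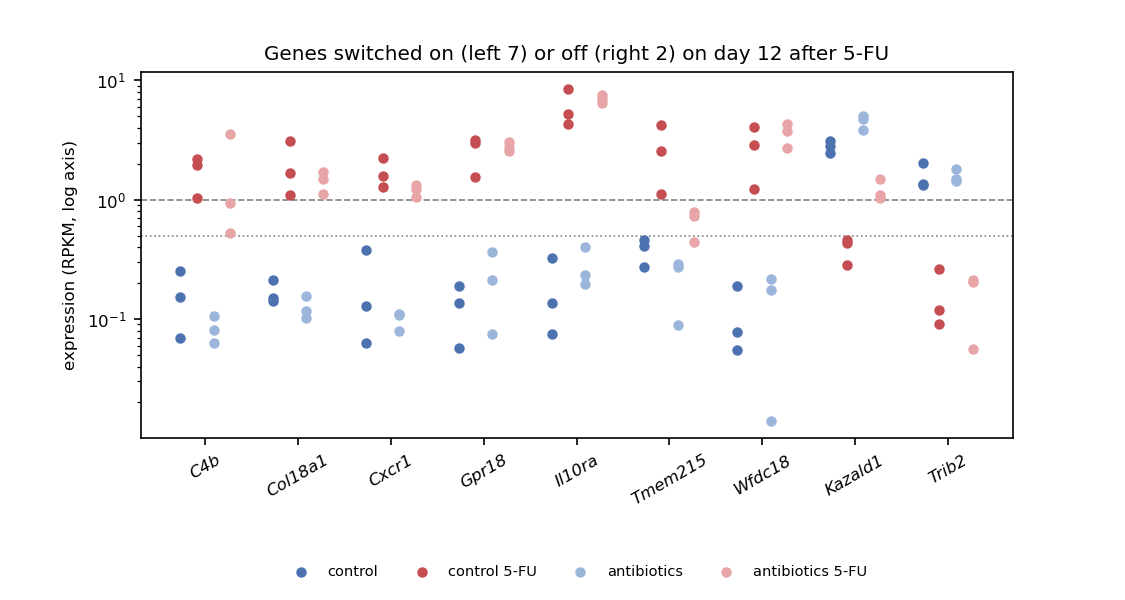
RPKM (log axis) of the 9 genes switched on or off, 1 point per library, in the control, control 5-FU, antibiotics and antibiotics 5-FU groups, with lines at 0.5 and 1 RPKM. In both kinds of mice Il10ra, Gpr18 and Wfdc18 lie under 0.5 RPKM without 5-FU and above 1 RPKM with it, and Trib2 does the reverse.

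A wider set of low genes moved across 1 RPKM. These genes too were chosen by their values, which are given without a test. There were 24 genes called higher whose mean was under 1 RPKM in control and at least 2 RPKM after 5-FU, and 11 genes called lower with the reverse. Of the 24, Klrb1c, a C-type lectin receptor best known as NK1.1 (chr6:128778485-128789215), stood at 0.645, 1.25 and 0.699 RPKM in control and at 4.31, 5.41 and 6.41 RPKM after 5-FU, a log2 change of 1.78. Slc16a11, a monocarboxylate transporter (chr11:70212752-70216417), stood at 0.326, 0.355 and 0.783 RPKM and then at 2.58, 4.34 and 3.74 RPKM, a change of 1.61. For both genes the 6 libraries fell into separate ranges. The T and NK markers Ncr1, Gzma and Cd3e stood under 0.5 RPKM in all 6 libraries. Nkg7, a granule protein gene of the same list, stood at 38.7, 23.7 and 37.3 RPKM in control and at 34.5, 49.5 and 41.5 RPKM after 5-FU, with groups that overlapped (0.34, adjusted p = 0.19). Of the 11, Rnf208, a RING-type ubiquitin ligase (chr2:25242255-25244262), went from 1.74, 3.76 and 4.29 RPKM to 0.25, 0.248 and 0.537 RPKM, a change of -1.62.

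Gene families were then taken by symbol, 108 in all, of which 95 had at least 4 tested members. They were grouped as transcription factors, surface proteins, secreted proteins and proteins inside the cell, and each is described by its calls and its median. Every count below is to be read beside all genes tested, with 9.74% higher, 11.8% lower and a median change of 0.005. Of 349 surface genes 86 were higher (24.6%) and 23 lower (6.59%), with a median change of 0.159. Of 142 secreted genes 33 were higher (23.2%) and 13 lower (9.15%), with a median of 0.242. Of 390 transcription factors 68 were higher (17.4%) and 11 lower (2.82%), with a median of 0.135. The 1155 genes of families inside the cell were called higher in 11.6% and lower in 14.8%, with a median of 0.001 that became 0.130 when libraries were rescaled to the same total.

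**Figure D3:**
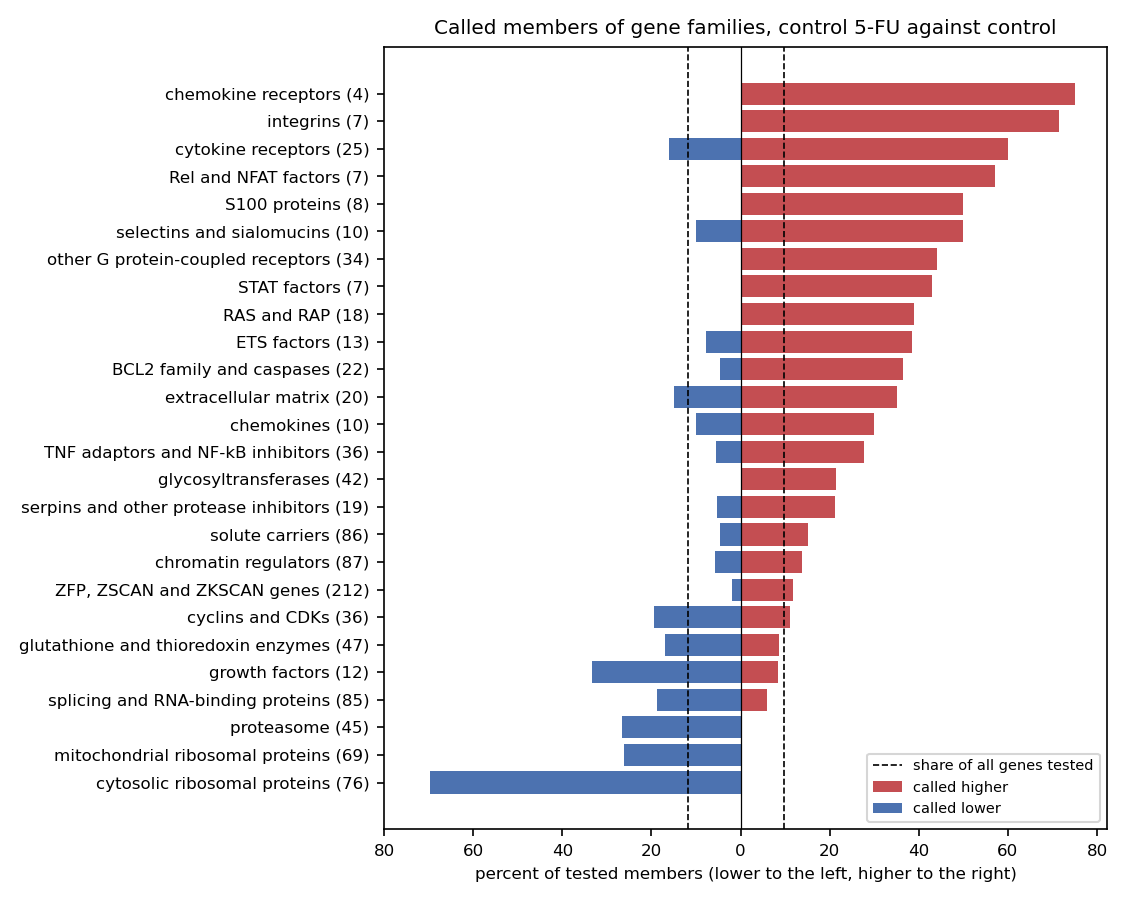
Share of tested members called higher (right) and lower (left) after 5-FU in 26 gene families, with the number tested in parentheses and dashed lines at the shares of all genes tested (9.74% and 11.8%). Receptor, integrin and Rel families lie at the top with shares higher above the line, and cytosolic ribosomal proteins lie at the bottom with 53 of 76 lower.

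Receptors for interleukins and other hematopoietic cytokines were called in both directions: 15 of 25 tested members rose, 4 fell, and the median change was 0.428. The shared signalling chain of the receptors for interleukin 3, interleukin 5 and GM-CSF has a near copy in the mouse, and both were higher. Csf2rb (chr15:78325990-78351000) stood at 2.20, 1.70 and 1.22 RPKM in control and at 5.34, 4.50 and 4.76 RPKM after 5-FU, a change of 1.13 ± 0.12 (adjusted p = 0.00035). Csf2rb2 (chr15:78282517-78305603) stood at 0.593, 0.690 and 0.740 RPKM and then at 4.07, 2.68 and 3.20 RPKM, a change of 1.35 ± 0.12 (adjusted p = 9.2e-05). Neither pair of groups overlapped, and since the 2 genes are near copies the share of reads each received is uncertain. The partner chain for interleukin 3, Il3ra, rose by 0.54, whereas that for GM-CSF, Csf2ra, changed by -0.02 (adjusted p = 0.95) and the G-CSF receptor Csf3r by 0.11 (adjusted p = 0.67).

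The other receptors that rose cover interleukin 4, interferons and the common gamma chain. Il2rg, the gamma chain that several lymphoid interleukins share (chrX:101264378-101268255), was the most abundant of those that rose, at 58.5, 53.9 and 51.2 RPKM in control and 79.6, 87.9 and 94.9 RPKM after 5-FU (0.67 ± 0.11, adjusted p = 0.0030). Il4ra went from 3.91, 4.40 and 3.46 RPKM to 7.90, 6.74 and 7.67 RPKM (0.78 ± 0.10, adjusted p = 0.0010). No control library reached a treated one for either gene. Both chains of the interferon gamma receptor rose, Ifngr1 by 0.62 and Ifngr2 by 0.67, and the type I interferon receptor chain Ifnar1 rose by 0.44. Its partner Ifnar2 rose by 0.32 and Il10rb, the second chain of the interleukin 10 receptor, by 0.39, each called in 4 of the 6 fits that leave out a library. These receptor genes and Il3ra are named as further members of the family, after their values were seen.

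Of the 4 receptors that fell, Il17re went from 2.37, 2.80 and 2.73 RPKM to 0.370, 1.01 and 0.902 RPKM, a change of -1.06 ± 0.13 (adjusted p = 0.00078), and every treated library was below every control library. Il21r fell by 0.65 and Il11ra1, which has near copies in the mouse, fell by 0.56. The erythropoietin receptor Epor changed by 0.97 ± 0.33 (adjusted p = 0.058) and the interleukin 6 signal chain Il6st by 0.93 ± 0.33 (adjusted p = 0.062), and neither passed the test. Both were highest in control 5-FU 1, at 13.7 and 8.03 RPKM. Without that library Epor changed by 0.52 (adjusted p = 0.12), and without control 5-FU 3 it was called (1.25, adjusted p = 0.039).

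Of 34 G protein-coupled receptors outside the chemokine receptors 15 rose and 0 fell, also 0 at an unadjusted p under 0.05, and the median change was 0.445. S1pr1, the receptor for sphingosine 1-phosphate that guides blood cells out of tissues (chr3:115710433-115715072), stood at 9.55, 8.87 and 8.76 RPKM in control and at 36.8, 25 and 24.0 RPKM after 5-FU, a change of 1.53 ± 0.19 (adjusted p = 0.00078). Gpr4, a sensor of acid (chr7:19212538-19224174), stood at 0.912, 0.701 and 0.643 RPKM and then at 2.83, 2.89 and 3.23 RPKM, a change of 1.19 ± 0.08 (adjusted p = 2.1e-05). The treated values of Gpr4 lay close together, and those of S1pr1 had control 5-FU 1 on top. Gpr146 rose by 0.83.

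The thrombin receptor family also contributed. F2rl2, a coreceptor of the thrombin receptors, went from 1.51, 0.663 and 0.543 RPKM to 7.45, 2.63 and 2.40 RPKM (1.34 ± 0.29, adjusted p = 0.010), and without control 5-FU 1 the change was 0.92 (adjusted p = 0.0057). F2r, the main thrombin receptor, which was named after its values were seen, went from 11.7, 12.6 and 8.01 RPKM to 40.6, 19.9 and 20.2 RPKM (1.19 ± 0.25, adjusted p = 0.0087). In both, control 5-FU 1 had the highest value, as it did for the platelet markers, and the part of platelet RNA was not tested. Of the receptors for nucleotides, P2ry1 rose by 1.19, and of those for short fatty acids, Ffar2 rose by 1.04, both named in the same way.

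**Figure D4:**
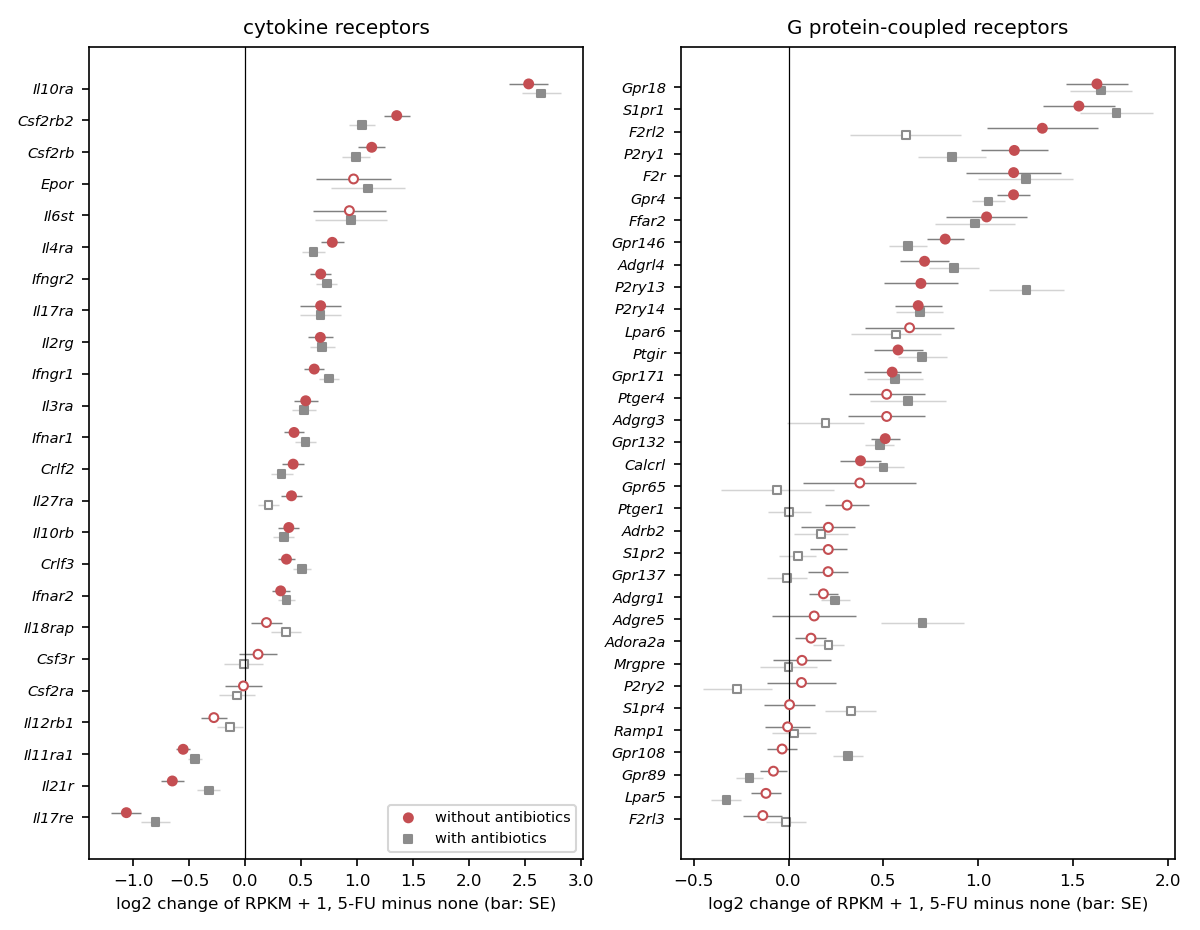
Log2 change after 5-FU (x axis, log2 of RPKM + 1, bar: SE) of the cytokine receptors (1 of the 25 tested is not drawn) and the 34 G protein-coupled receptors tested, in mice without antibiotics (circles) and with antibiotics (squares), filled where called. Il10ra leads the left panel at 2.53 and Il17re closes it at -1.06, while no filled circle lies below 0 in the right panel.

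Of the 4 chemokine receptors tested 3 rose. Cxcr4, the receptor that holds HSCs near CXCL12-producing stroma (chr1:128588199-128592293), stood at 4.11, 3.44 and 4.57 RPKM in control and at 7.96, 7.76 and 12.3 RPKM after 5-FU, a change of 1.02 ± 0.20 (adjusted p = 0.0061). Ackr1, the Duffy antigen that binds chemokines without signalling, stood at 3.62, 3.04 and 0.799 RPKM and then at 34.5, 7.85 and 7.80 RPKM, a change of 2.12 ± 0.61 (adjusted p = 0.030). Cxcr4 kept its call whichever library was left out. That of Ackr1 was lost without control 3 (1.70, adjusted p = 0.12) and without control 5-FU 1 (1.45, adjusted p = 0.070). The third that rose was Cxcr1, and Ccrl2 did not pass (0.28, adjusted p = 0.14).

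Of 7 integrins 5 rose and 0 fell, with 7 higher and 0 lower at an unadjusted p under 0.05. Itga2b, the CD41 chain of platelets and of a subset of HSCs (chr11:102453297-102470122), stood at 10.7, 8.24 and 8.63 RPKM in control and at 29.7, 15.4 and 15.7 RPKM after 5-FU (1.0 ± 0.21, adjusted p = 0.0086), and rose by 0.71 without control 5-FU 1 (adjusted p = 0.0057). Itga5, a chain of the fibronectin receptor, rose by 0.70 ± 0.11 and Itgb2, the chain of the leukocyte integrins, by 0.60 ± 0.07. Itgb2 had a narrow spread, with 1.19 to 1.43 RPKM in control and 2.43 to 2.66 RPKM after 5-FU. The calls of Itgb3 and Itgb1 depended on the library left out, and Itgb3 lost its call without control 3 while Itgb1 kept it in 2 of the 6 fits.

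Among the selectins and sialomucins, Selp, P-selectin (chr1:164115264-164150026), stood at 1.77, 3.99 and 3.36 RPKM in control and at 14.1, 15.5 and 14.8 RPKM after 5-FU, a change of 2.01 ± 0.17 (adjusted p = 6.4e-05). Its 3 treated values were nearly equal, and control 5-FU 1, the library with the most platelet marker RNA, was the lowest of them. Selp is itself 1 of the megakaryocyte and platelet markers, and the part of platelet RNA in its values was not tested. The predicted antisense gene Gm16587 lies within Selp and was called higher with it, and since strand use is not given in the sources used here, their reads cannot be told apart. Of the 10 selectins and sialomucins 5 rose and 1 fell, those that rose including Muc13 (0.64) and the hyaluronan receptor Cd44 (0.34). Cd34, a sialomucin that most long-term HSCs of the adult mouse lack, fell from 24.5, 20.5 and 17.0 RPKM to 9.17, 15.9 and 15.2 RPKM (-0.61 ± 0.19, adjusted p = 0.044). Its call was the least secure of the family: it held in 2 of the 6 fits, the change was -0.37 without control 5-FU 1, and the call was lost when libraries were rescaled to the same total. Of 14 cadherins, claudins and junction proteins 2 rose and 2 fell (14.3% each, near the 9.74% and 11.8% of all genes).

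Further surface proteins moved singly. Clec4e, a lectin that binds mycobacterial glycolipid, went from 2.77, 3.10 and 1.96 RPKM to 5.63, 10.1 and 9.55 RPKM (1.36 ± 0.18, adjusted p = 0.0012). Ms4a6c, a tetraspanning protein with near copies in its cluster, went from 0.968, 0.760 and 0.870 RPKM to 3.34, 3.80 and 3.99 RPKM (1.34 ± 0.10, adjusted p = 3.4e-05). Both were higher in every treated library. Mfsd2b, an exporter of sphingosine 1-phosphate, rose by 1.69 (1.42 without control 5-FU 1) and the lipoprotein receptor Vldlr by 1.47. The endothelial adhesion molecules Esam and Pecam1 rose by 0.75 and 0.69, and both were highest in control 5-FU 1, at 51.7 and 2.22 RPKM. Pecam1 is 1 of the stroma and endothelium markers, whose sum was highest in that library, and their part in these values was not tested. The TGF-beta receptors Tgfbr2 and Tgfbr3, through which TGF-beta holds HSCs at rest, rose by 0.49 and 0.47. Among those that fell, Tnfrsf18, the costimulatory receptor GITR, went from 18.9, 19.1 and 16.3 RPKM to 7.45, 10.9 and 8.48 RPKM (-0.95 ± 0.12, adjusted p = 0.00099), and the lectin Cd72 fell by 0.83.

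Secreted proteins followed the surface proteins in the balance of calls. Ccl9, a chemokine of the CC class (chr11:83572919-83578636), stood at 0.969, 0.837 and 0.807 RPKM in control and at 3.66, 7.11 and 10.3 RPKM after 5-FU, a change of 2.01 ± 0.27 (adjusted p = 0.0011). The order of its treated values was that of the neutrophil and monocyte markers, whose part was not tested, and without control 5-FU 3 the change was 1.72 (adjusted p = 0.0035). Of 10 chemokines 3 rose and 1 fell. Ltb, the membrane-bound lymphotoxin, rose by 0.73, the macrophage growth factor Csf1 by 0.51 and the death ligand Tnfsf10 by 0.49.

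The S100 proteins, small calcium-binding proteins, had 4 of 8 tested members higher. Beside the granulocyte proteins S100a8 and S100a9, S100a4 went from 4.40, 3.79 and 4.26 RPKM to 12.4, 9.89 and 11.3 RPKM (1.24 ± 0.18, adjusted p = 0.0016). S100a6 went from 2.74, 2.77 and 3.06 RPKM to 5.94, 5.98 and 5.81 RPKM (0.84 ± 0.10, adjusted p = 0.00065). Among the treated libraries S100a4 was highest in control 5-FU 1 and lowest in control 5-FU 2, and S100a6 was nearly equal in all. The part of neutrophil and monocyte RNA in the values of these S100 genes was not tested. Without control 5-FU 3, S100a4 changed by 1.23, S100a6 by 0.85, S100a8 by 2.04 (adjusted p = 0.028) and S100a9 by 1.71 (adjusted p = 0.035), and the neutrophil granule gene Ngp, called in 1 of the 6 fits, lost its call (1.22, adjusted p = 0.14).

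Of 20 genes of the extracellular matrix 7 rose and 3 fell, with a median change of 0.316. Tgfbi, a matrix protein induced by TGF-beta that binds integrins (chr13:56609603-56639339), stood at 1.14, 0.941 and 1.02 RPKM in control and at 4.48, 3.60 and 4.86 RPKM after 5-FU, a change of 1.38 ± 0.11 (adjusted p = 3.5e-05). Ecm1, a secreted glycoprotein that binds matrix proteases (chr3:95734147-95739569), stood at 4.21, 3.82 and 2.63 RPKM and then at 24.6, 12.3 and 13.1 RPKM, a change of 1.91 ± 0.24 (adjusted p = 0.00078). Tgfbi was even across the treated libraries, while Ecm1 was highest in control 5-FU 1 and changed by 1.60 without it. The collagen IV genes Col4a1 and Col4a2, which are neighbours, and Vwf, the platelet adhesion protein, had the same library on top. Col4a1 changed by 1.12, and by 0.58 without control 5-FU 1, and was called in 3 of the 6 fits. Col4a2, named after its values were seen, rose by 1.05 (0.75 without control 5-FU 1) and Vwf by 0.95 (0.66 without it). Since stroma and endothelium markers such as Kdr and Cdh5 were also highest in that library, at 3.72 and 1.91 RPKM, their part in these values was not tested. The heparan sulphate proteoglycan Sdc1 rose by 0.91, and Mmrn1 fell by 0.43 and Col16a1 fell by 0.38.

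Other secreted proteins rose singly. Lgals1, galectin 1, went from 3.87, 2.91 and 4.98 RPKM to 14.2, 10.5 and 10.9 RPKM (1.40 ± 0.20, adjusted p = 0.0014). Ache, acetylcholinesterase, went from 0.645, 0.686 and 0.358 RPKM to 10.2, 3.53 and 2.63 RPKM (1.87 ± 0.31, adjusted p = 0.0030), and changed by 1.38 without control 5-FU 1. The groups were apart in both genes. Serpina3g, a protease inhibitor of the HSC with close copies next to it, went from 129, 140 and 143 RPKM to 333, 206 and 281 RPKM (0.96 ± 0.13, adjusted p = 0.0013), the most abundant of these genes.

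Fewer secreted proteins fell. Tnfsf13, the B cell factor APRIL (chr11:69682846-69685784), went from 6.08, 7.16 and 8.61 RPKM to 1.0, 3.18 and 3.46 RPKM (-1.30 ± 0.27, adjusted p = 0.0081), with reads that an overlapping antisense gene may share. The carboxypeptidase-like Cpxm1 went from 5.32, 7.36 and 9.45 RPKM to 3.44, 2.69 and 2.29 RPKM (-1.12 ± 0.19, adjusted p = 0.0030). Klk8, a serine protease, went from 5.58, 5.55 and 6.21 RPKM to 2.0, 2.81 and 2.11 RPKM (-1.04 ± 0.10, adjusted p = 0.00016). In all 3 genes every treated library was below every control library. Ebi3, a chain of interleukins 27 and 35, fell by 0.86 and Fgf11 fell by 0.85. Of 12 growth factors 4 fell and 1 rose, with a median of -0.222 that stayed negative when libraries were rescaled (-0.137).

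Transcription factors that sit below these receptors were among those called. Of 7 Rel and NFAT factors 4 rose, with a median change of 0.413. Nfkb2, the precursor of p52, went from 4.32, 3.57 and 4.01 RPKM to 7.10, 6.45 and 5.91 RPKM (0.59 ± 0.09, adjusted p = 0.0022), and Relb rose by 0.41. Rel rose by 0.42 and lost its call without control 1 or control 3. Of 7 STAT factors 3 rose: Stat3 (0.64), Stat6 (0.47), which acts below the interleukin 4 receptor, and Stat5b (0.39), which acts below Csf2rb. None of the 7 interferon regulatory factors and none of the 5 E2F and DP factors was called by limma, with 1 of the former higher and 0 of the latter at an unadjusted p under 0.05.

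Of 13 ETS factors 5 rose and 1 fell, and Elf1 (0.46) and Fli1 (0.40), a factor of HSCs and megakaryocytes, held in all fits. Of 19 AP-1, ATF, CREB and MAF factors 4 rose. Fosl2 went from 0.417, 0.306 and 0.310 RPKM to 1.89, 0.793 and 2.35 RPKM (0.95 ± 0.19, adjusted p = 0.0073). Hes1, a repressor induced by Notch, went from 0.185, 0.18 and 0.133 RPKM to 1.26, 0.696 and 1.14 RPKM (0.79 ± 0.16, adjusted p = 0.0063). Both were low in control, and control 5-FU 2 had the lowest of the treated values. Arid5a, an RNA-binding and chromatin protein that stabilises inflammatory transcripts, went from 2.44, 2.61 and 3.30 RPKM to 6.00, 8.30 and 13.3 RPKM (1.38 ± 0.20, adjusted p = 0.0016).

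Single factors tied to HSC and megakaryocyte or erythroid identity rose. Hoxb5, a marker of long-term HSCs (chr11:96303336-96306121), went from 3.40, 3.33 and 2.96 RPKM to 6.10, 5.38 and 6.10 RPKM (0.70 ± 0.10, adjusted p = 0.0014). Hoxb2, in the same cluster, went from 1.75, 1.19 and 1.19 RPKM to 2.59, 2.69 and 3.68 RPKM (0.74 ± 0.16, adjusted p = 0.0083). The groups were separate in both, and these were the 2 of 6 tested Hox genes that were called. The HSC factors Meis1 (-0.03, adjusted p = 0.80) and Hlf (0.13, adjusted p = 0.57) were not called, and their groups overlapped. Gata1, the master factor of erythroid and megakaryocyte cells, went from 2.15, 1.10 and 1.29 RPKM to 5.57, 3.18 and 2.95 RPKM (0.95 ± 0.19, adjusted p = 0.0064), and Gata2 rose by 0.34. Gata1 was highest in control 1 and control 5-FU 1, the libraries highest in platelet markers within their groups, and the part of platelet RNA was not tested. The glucocorticoid receptor Nr3c1 rose by 0.58 and Klf6 by 0.61.

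The factors that fell were fewer. Mesp2, a bHLH factor of early mesoderm, went from 1.44, 0.974 and 1.68 RPKM to 0.106, 0.333 and 0.265 RPKM (-0.93 ± 0.14, adjusted p = 0.0019). Nr0b2, an orphan nuclear receptor that represses others, went from 1.85, 1.70 and 3.28 RPKM to 1.08, 0.751 and 0.516 RPKM (-0.86 ± 0.17, adjusted p = 0.0056). Both genes lie near the filter of 1 RPKM, and their groups did not overlap. The large set of ZFP, ZSCAN and ZKSCAN genes, most of them KRAB-type repressors of retroelements, had 25 of 212 higher and 4 lower. The share higher was 11.8%, near the 9.74% of all genes, and the share lower was 1.89%, beside 11.8%. Only 6 of those calls held in all fits that leave out a library, and with quantile normalization the calls were 14 and 5.

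Inside the cell, several signalling families had more higher than lower calls. Of 18 RAS and RAP proteins and their regulators 7 rose and 0 fell (8 and 0 at an unadjusted p under 0.05), among them Rassf1 (0.75), Rras (0.61) and Rapgef3 (0.51). Of 22 BCL2 proteins and caspases 8 rose and 1 fell, and the members that held in all fits were Birc3 (0.47), an inhibitor of cell death, and the caspases Casp4 (0.41), Casp6 (0.39) and Casp12 (0.34). Thus members that promote and members that restrain cell death are both in that list. Of 36 adaptors and inhibitors of TNF and NF-kB signalling 10 rose and 2 fell, including the feedback inhibitors Tnfaip3 (0.59) and Bcl3 (0.56). Traip, a ubiquitin ligase that acts at replication forks despite its place in the list, fell by 0.83. Of 42 glycosyltransferases 9 rose and 0 fell (15 and 1 at an unadjusted p under 0.05). Galnt6 (0.71), which starts mucin-type chains, St8sia4 (0.62), which makes polysialic acid, and Ndst1 (0.58), which sulphates heparan, held in all fits.

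Cyclins and their kinases split. Ccnd2, the D cyclin that cytokine receptors induce (chr6:127125162-127152193), went from 14.7, 16.7 and 17.1 RPKM to 6.71, 7.05 and 6.00 RPKM, a change of -1.18 ± 0.08 (adjusted p = 2.1e-05). Cdk4, its partner, went from 126, 114 and 127 RPKM to 86.9, 90.5 and 74.9 RPKM (-0.54 ± 0.09, adjusted p = 0.0025). Cdk6, the other partner kinase, moved the opposite way, from 0.807, 0.703 and 0.833 RPKM to 1.30, 1.47 and 1.66 RPKM (0.47 ± 0.07, adjusted p = 0.0018). Each of these 3 genes had groups that did not overlap. Cdk1, the mitotic kinase, fell by 0.75, while Ccng2, a cyclin of cells that leave the cycle, rose by 0.92 and the little-studied Ccnj by 0.67. In all 7 of 36 fell (19.4%, beside 11.8% of all genes) and 4 rose (11.1%, beside 9.74%). With libraries rescaled to the same total the counts turned to 3 lower and 8 higher.

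Of 87 chromatin regulators 12 rose (13.8%, beside 9.74% of all genes) and 5 fell (5.75%, beside 11.8%), and after rescaling 24 rose and 3 fell. Chd3, a remodeller of the NuRD complex, went from 1.13, 1.36 and 1.67 RPKM to 2.96, 2.83 and 3.33 RPKM (0.76 ± 0.09, adjusted p = 0.00074), and the deacetylase Hdac5 and the H3K4 demethylase Kdm5b, named after their values were seen, rose by 0.66 and 0.57. The nucleosome-binding proteins Hmgn1 and Hmgn2 fell: Hmgn1 went from 29.5, 23.7 and 28.1 RPKM to 16, 16.1 and 15.9 RPKM (-0.72 ± 0.09, adjusted p = 0.00078) and Hmgn2 changed by -0.76. The treated values of Hmgn1 were almost identical.

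Families with more lower than higher calls included those that make and remove protein. Of 76 cytosolic ribosomal proteins 53 fell and 0 rose (71 and 0 at an unadjusted p under 0.05), with a median of -0.341, which was -0.165 with 23 lower after rescaling to the same total and -0.216 with 26 lower after quantile normalization. Of the 53, 21 held in all fits that leave out a library. Of 45 proteasome genes 12 fell and 0 rose (20 and 0 at an unadjusted p under 0.05), with a median of -0.203. In the proteasome 7 fell after rescaling, with a median of -0.048, 5 fell when only the 6 libraries were fitted, and 7 fell without control 1, without control 3 or without control 5-FU 3. Psmb8, Psmb9 and Psmb10, the catalytic subunits of the immunoproteasome, and Psme1 and Psme2, of its activator, all fell in every such fit. Psmb8 went from 146, 146 and 143 RPKM to 106, 115 and 99.2 RPKM (-0.44 ± 0.08, adjusted p = 0.0047), and lost its call under quantile normalization, and Psme2, which has a near copy, fell by 0.56. Of 69 mitochondrial ribosomal proteins 18 fell, but 1 did after rescaling, when 2 rose. Of 85 splicing and RNA-binding proteins 16 fell and 5 rose with a median of -0.083, which turned to 0.066 after rescaling, with 16 higher and 5 lower. Srsf3, a splicing factor, fell by 0.57 and Snrpd2, a core protein of the spliceosome, fell by 0.56. Of 47 glutathione, thioredoxin and peroxiredoxin genes 8 fell (17.0%, beside 11.8% of all genes) and 4 rose (8.51%, beside 9.74%). Thioredoxin Txn1 fell by 0.47 while Mgst1, a membrane glutathione transferase, rose by 0.76. The family median of -0.125 turned to 0.022 after rescaling.

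Some of the largest changes belonged to no family in the list, or to families not described above. Gem, a small GTPase that restrains calcium channels and the cytoskeleton (chr4:11704457-11714752), went from 1.35, 2.08 and 1.12 RPKM to 6.17, 9.05 and 8.88 RPKM (1.84 ± 0.17, adjusted p = 0.00014). Its relative Rrad went from 4.41, 4.26 and 4.68 RPKM to 10.1, 13.1 and 10.3 RPKM (1.15 ± 0.13, adjusted p = 0.00039). Pim2, a survival kinase induced by STAT5, went from 10.1, 13.4 and 16.6 RPKM to 24.1, 40.6 and 33.8 RPKM (1.23 ± 0.19, adjusted p = 0.0022). All 3 had separate groups, a condition for genes outside families that were picked by the size of their change. Gimap4, a GTPase of lymphocytes, rose by 1.88, and by 1.52 without control 5-FU 1, in which it was highest. Unlike those 3 genes it belongs to a listed family, the GIMAP and interferon GTPases. Of the 20 tested members of that family 1 was called higher and 3 lower, beside 9.74% and 11.8% of all genes.

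On the lower side, Phlda2, an imprinted growth restrainer, went from 13.4, 9.33 and 10.7 RPKM to 3.05, 4.88 and 3.56 RPKM (-1.34 ± 0.14, adjusted p = 0.00028). Ndn, the imprinted gene of necdin, which restrains HSC cycling, went from 58.6, 46.8 and 53.9 RPKM to 29.8, 32.4 and 23.2 RPKM (-0.88 ± 0.13, adjusted p = 0.0015). Both had separate groups. Bex1 fell by 1.12 and Car2, a carbonic anhydrase, fell by 0.77. The globin gene Hbb-bt, which has a near copy, went from 53.6, 11.3 and 24.5 RPKM to 99.3, 121 and 102 RPKM (2.07 ± 0.40, adjusted p = 0.0059), while the erythroid markers Alas2 and Slc4a1 were under 0.5 RPKM in all 6 libraries. The other globin genes had control 1 on top: Hba-a1 stood at 74.0, 3.37 and 2.34 RPKM in control and at 17.6, 26.4 and 8.12 RPKM after 5-FU and was not called (adjusted p = 0.70), and Hba-a2 and Hbb-bs were also highest in control 1.

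Runs of called neighbours were counted as a description. Among genes in the order of the table there were 17 runs of 3 or more neighbours called higher, 8 of them spanning under 250 kb, and 17 runs called lower, 15 of them under 250 kb. Of all genes tested 9.74% were called higher and 11.8% lower. How many runs such shares give in a random order was not tested. On chromosome 3, Gpr171, P2ry14 and P2ry13 rose within 114.4 kb (chr3:59096448-59210882), though Gpr171 and P2ry13 each kept the call in 2 of the 6 fits that leave out a library. S100a4, S100a6, S100a8 and S100a9 rose within 92.0 kb (chr3:90603771-90695721), and all 4 kept the call in every such fit. On chromosome 16, Ifnar2, Il10rb and Ifnar1 rose within 134.7 kb (chr16:91372783-91507441), and on chromosome 11, Ccl4, Wfdc17 and Wfdc18 rose within 48.8 kb (chr11:83662584-83711348). Among the lower runs were Cd72, Ccdc107 and Arhgef39 within 53.2 kb (chr4:43446462-43499695) and the interferon GTPases Tgtp1 and Tgtp2 next to Psme2b within 118.9 kb (chr11:48945354-49064206). Tgtp1 and Tgtp2 are near copies, and the call of Tgtp1 was lost in each of the 6 fits that leave out a library.

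Of 100 long intergenic noncoding RNAs tested 10 were higher and 7 lower, beside 9.74% and 11.8% of all genes, and after rescaling 17 were higher and 2 lower. Among noncoding genes of all kinds, Mir8094 fell by 0.97, Fcor, listed as antisense, fell by 0.94 and Rbakdn fell by 0.93, and Etohd2 rose by 0.64. Of 982 pseudogenes tested, whose reads are shared with their parent genes, 37 were higher (3.77%) and 182 lower (18.5%), with a median of -0.108. After rescaling to the same total this balance turned to 108 higher and 82 lower, with a median of 0.03, and after quantile normalization the counts were 50 and 97.

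The antibiotic-treated mice gave a second reading of all these calls, with log2 changes from libraries outside the control pair. The tests of the 2 pairs share 1 estimate of the spread per gene, so the calls are not independent. The index read, which cannot be told apart from the treatment, sets the 5-FU libraries apart in both pairs. There 1175 genes were higher after 5-FU (13.7% of those tested) and 1411 lower (16.5%). Of the 833 genes called higher in mice without antibiotics, 807 had the same sign (96.9%) and 588 were also called higher (70.6%). Of the 1013 called lower, 983 had the same sign (97.0%) and 698 were also called lower (68.9%). Selp rose by 2.68 there, S1pr1 by 1.73, Klrb1c by 2.0, Ccl9 by 2.11 and Tgfbi by 1.37, and Ccnd2 fell by 1.26. The calls were in opposite directions for 2 genes. Zfp472, a zinc finger gene, rose by 0.30 without antibiotics, called in 3 of the 6 fits that leave out a library, and fell by 0.26 with them, and the processed pseudogene Gm5537 fell by 1.07 without antibiotics, called in 5 of the 6 fits, and rose by 0.91 with them.

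The difference between the 2 changes was tested for every gene, and 1 of 8553 passed (0.0117%), the uncharacterised transcript Gm37599. A total of 710 of the 8553 genes had an unadjusted p under 0.05. That is a larger share than the 0.05 that would be met on average with no difference in any gene. A difference that did not pass is therefore not shown to be absent. Cxcr4 changed by 0.07 in the antibiotic-treated mice against 1.02 without antibiotics, a difference of -0.95 ± 0.28 that did not pass (unadjusted p = 0.0061, adjusted p = 0.50). Fcor (0.01), Fli1 (0.08) and Spry1 (0.16), an inhibitor of growth factor signals that rose by 0.81 without antibiotics, were not called there, and their differences did not pass. The differences for S100a8 (-2.24, adjusted p = 0.57) and Ngp (-2.29, adjusted p = 0.60) did not pass either.

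**Figure D5:**
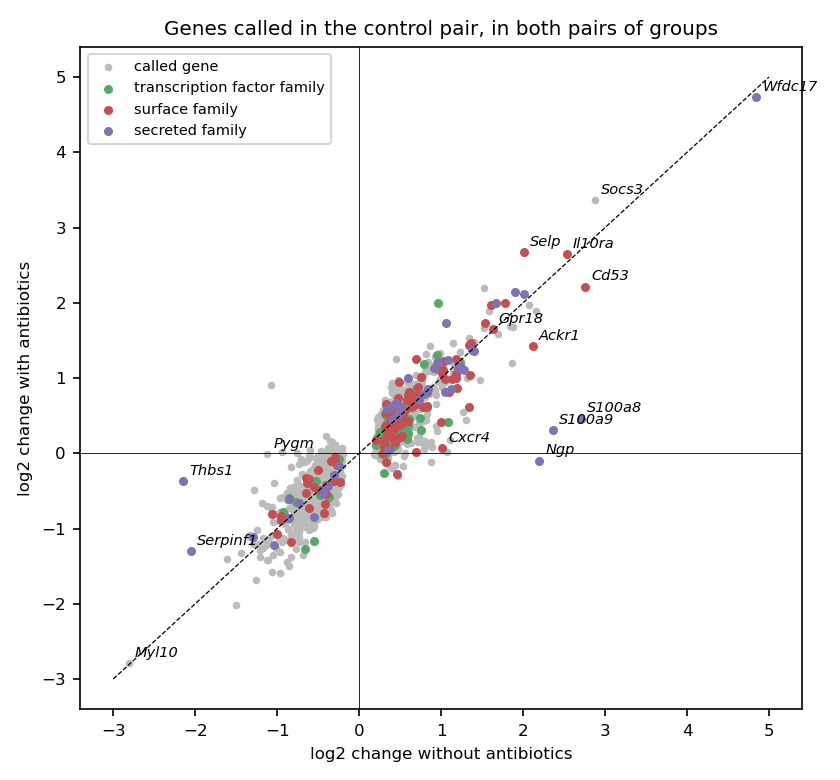
Log2 change after 5-FU in mice with antibiotics (y axis) against that in mice without (x axis) for the genes called in mice without antibiotics, 1 point per gene, coloured by class of family, with the line of equal change. Most points lie near the line, with 96.9% of higher and 97.0% of lower genes on the same side of 0, and Cxcr4, S100a8, S100a9 and Ngp lie below it.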

How the data were processed

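RNA of sorted HSCs was measured by RNA sequencing in 12 libraries, 3 in each of 4 groups, with SMART-Seq v4 and Nextera XT kits per the labels' protocols. Per the submitters' processing notes, STAR 2.5.3a, Partek and the mm10 build were used. How reads were counted, whether by strand and with which annotation is not given in the sources used here. Values are RPKM made by the authors, as deposited, with 0.0001 in place of 0, and the authors' values were not rescaled. The spacing of low values gave estimated depths of 44.2 to 54.8 M reads in control and 27.8 to 54.0 M in control 5-FU; whole reads could not be recovered, which leaves out count tests.

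With R 4.3.3 and limma 3.58.1, log2(RPKM + 1) of 8553 genes was fitted over all 12 libraries with 4 group means, an intensity trend, two-sided tests and Benjamini-Hochberg adjustment over all genes, called at 0.05. Exact permutation of 3 against 3 libraries cannot pass that threshold and was not run. Gene families were taken by symbol pattern, less 22 symbols that matched by chance. The members and lists were chosen with earlier results of these data known. Named genes were the 12 largest called changes per class and direction with 2 RPKM or more as the mean of the higher group and groups that do not overlap, up to 4 called members of each family by p, all switched genes, 15 per direction outside families, the cell type markers and 6 noncoding genes per direction. Others (such as Ndn, Bcl3, Psmb9, Psmb10, Csf2ra and Csf3r) were named after their values were seen. Samples without a replicate number in the labels were numbered in accession order. Alternatives covered the pseudocount, filter, scaling, moderation, samples in the fit and each library left out; 1 further scaling, to the total without pseudogenes, was chosen after seeing the data. The script was tested on simulated data. Some genes are not reported here.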

Additional observations from a re-analysis of the deposited data

Results flagged for a closer look

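Gm37599 was the only gene tested whose response to 5-FU differed between mice without and with antibiotics after adjustment over all genes. This uncharacterised transcript (chr1:141356789-141357277, mm10) stood at 3.46, 3.02 and 2.84 RPKM in control and at 3.18, 3.51 and 3.13 RPKM in control 5-FU, and the groups overlapped. With antibiotics it stood at 3.71, 3.72 and 3.25 RPKM without 5-FU and at 1.48, 1.27 and 1.35 RPKM with it. The log2 change was 0.06 without antibiotics and -0.94 with them, a difference of -1.0 ± 0.11 (limma, adjusted p = 0.0134). It lies at low RPKM.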

How the results depend on the processing

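Depth limits genes near 1 RPKM, since counting error adds to their spread. Fitting only the 6 libraries without antibiotics gave 380 higher and 432 lower genes. Rescaling to the same total gave 1880 and 436, and 2125 and 741 in antibiotic-treated mice, and rescaling to the total without pseudogenes, chosen after seeing the data, gave 1315 and 650. With 1 library left out the counts ranged from 427 to 908 higher and from 505 to 1170 lower. The count of differing responses was 7 without a filter on low values and 1 under the other alternatives. With 0.25 RPKM as the lower limit 3 genes were switched on and 0 off, and with 2 RPKM as the upper limit 1 and 1. With 1 library left out there were 7 to 13 on and 2 to 10 off. Of 378 named genes none changed direction in any alternative, and 117 lost the call with 6 libraries only, 95 without a filter, 38 after rescaling and 34 after quantile normalization. The cause was not tested. No paired analysis was possible because the labels give no replicate numbers that groups share.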
